A study of Mus musculus with 8 samples.

Results

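The follistatin, activin and myostatin axis is a set of secreted ligands of the TGF-β superfamily, the proteins that bind and neutralise them, and their cell-surface receptors. Its 10 genes were chosen by name and found by matching their symbols, which the files give in lower case (fst, fstl3, fstl1, inhba, inhbb, mstn, gdf11, acvr1b, acvr2a and acvr2b), in the table of estimated fragments, where all 10 were among 22558 genes listed. They are 3 follistatin family genes (Fst, Fstl3 and Fstl1), 4 ligand genes (Inhba, Inhbb, Mstn and Gdf11) and 3 receptor genes (Acvr1b, Acvr2a and Acvr2b). Activins are dimers of the β subunits encoded by Inhba and Inhbb. Together with myostatin (Mstn) and its close relative GDF11 they bind a type II receptor (ACVR2A or ACVR2B), which recruits and phosphorylates a type I receptor such as ACVR1B, which in turn phosphorylates SMAD2 and SMAD3. Follistatin wraps around activins and myostatin and keeps them from their receptors, and in skeletal muscle the balance of these proteins sets fibre mass.

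The axis was measured by RNA-seq in 8 mouse libraries in 4 groups of 2. Fibroblast activation protein (FAP), a serine protease on the surface of stromal cells, had served to sort 3 groups, taken from skeletal muscle, pancreas (labelled pancreatic stellate cells) and visceral adipose tissue after dissociation. Mouse embryonic fibroblasts (MEFs) without FAP made up the other group and were sorted, grown for 3 passages and sorted again. Strain, genotype, age and the number of animals behind a library are not given in the labels, and no treatment is named. The title concerns the loss of FAP-expressing stromal cells from muscle and bone marrow, but no library labelled as depleted is among the 8 samples. The labels call the 2 libraries of a group biological replicates, and p-values measure the spread between these libraries only. MEFs differ from the FAP+ cells in FAP, in age of origin and in culture at the same time, and these cannot be told apart here.

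Levels are normalized CPM, which are a gene's estimated fragments scaled to a fixed library size, with TMM factors between libraries. Fold changes, their standard errors (SE) and Benjamini-Hochberg adjusted p-values over 14847 genes come from edgeR's quasi-likelihood test, and a gene was called at an adjusted p below 0.05. The libraries held 15516319 to 27759399 estimated fragments, and 3 fragments, taken as the floor of detection, equal 0.09 to 0.229 normalized CPM. Fap itself was at 27.98 and 34.4 CPM in adipose, 55.4 and 65.7 in pancreas and 88.8 and 107 in muscle FAP+ cells, against 2.37 and 0.52 in MEFs, and all 6 FAP+ libraries were above both MEF libraries. All 9 fibroblast markers examined were above the floor in all 6 FAP+ libraries, with a summed level of 23748 to 52160 CPM, against 3684 and 4927 in MEFs. Adipose library 1 stood apart from the others. Its scaling factor was 0.516 against 0.889 to 1.31 elsewhere, and for 37.7% of genes its ratio of estimated fragments to whole reads was more than 2-fold from the gene's median over libraries, against 1.74% to 2.97% elsewhere. Some results that involve adipose are therefore also given with that library left out, or in whole reads. Where neither is given, an adipose value rests on both libraries in estimated fragments and may depend on that library.

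Of the 10 genes 9 passed the filter on low counts, and Mstn did not. Against MEFs, 3 members were higher and 1 lower in adipose FAP+ cells, where 26.9% of all genes tested were called higher and 23.2% lower. In muscle 3 were higher and 1 lower, beside 23.7% and 20.0% of all genes. In pancreas 1 was higher and 1 lower, beside 23.1% and 19.4%. Between tissues no member was higher and 2 were lower in muscle than in adipose (2.34% and 3.78% of all genes), none was higher and 1 lower in pancreas than in adipose (3.32% and 5.73%), and 1 was higher and none lower in pancreas than in muscle (1.54% and 2.14%). Against MEFs the median log2 fold change of the 9 members was 0.43 in adipose, 0.45 in muscle and 0.28 in pancreas, beside 0.05, 0.03 and 0.02 over all genes tested. Both type II receptor genes, both activin subunit genes and the follistatin-like genes Fstl1 and Fstl3 were called in at least 1 comparison. Fst, Gdf11 and Acvr1b were called in none. The 3 comparisons with MEFs share the same 2 MEF libraries, and each pair of tissue comparisons shares 1 tissue. Where libraries are said below to lie above or below others, the share of all genes that do so was not counted. With 2 libraries per group such an order is a description and not a test.

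**Figure D1:**
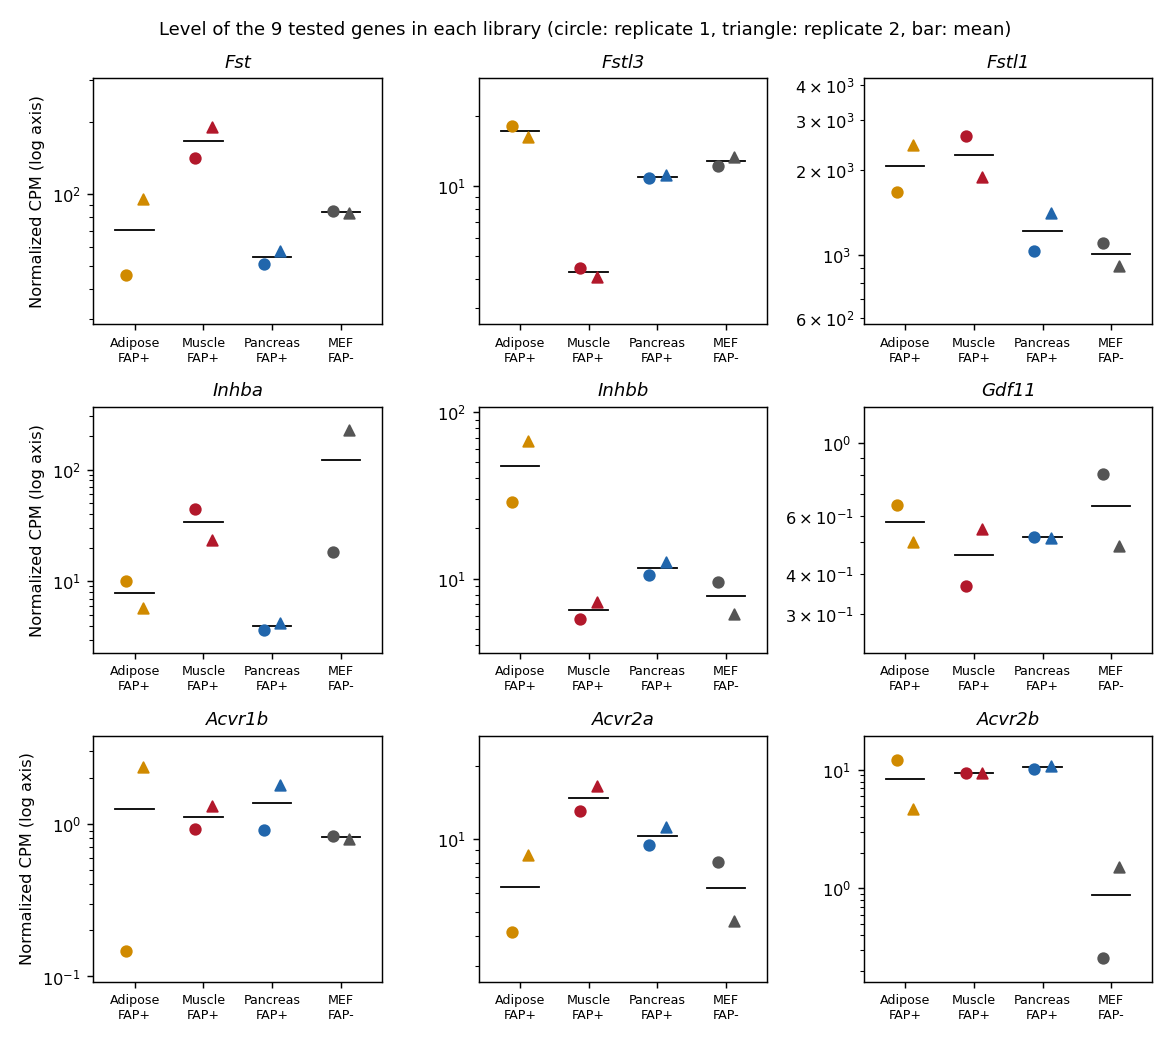
Normalized CPM on a log axis for each library, in 4 groups of 2, for the 9 members that passed the filter. Points are libraries (circle replicate 1, triangle replicate 2) and bars are means; Acvr2b lies at 4.69 CPM or more in all 6 FAP+ libraries and at 1.51 CPM or less in MEFs, Fstl3 is lowest in muscle, Inhbb highest in adipose, and Inhba is 18.3 CPM in one MEF library and 225 in the other.

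By estimated fragments, follistatin itself had its highest levels in the 2 muscle libraries. Fst was at 141 and 191 CPM in muscle, 45.7 and 95.2 in adipose, 51.0 and 57.5 in pancreas and 84.8 and 83.4 in MEFs. Both muscle libraries were above all 6 others, and both pancreas libraries were below both MEF libraries. The fitted level in muscle was 1.97-fold that in MEFs (log2 0.98 ± 0.37 SE, adjusted p = 0.0631), 2.35-fold that in adipose (1.23 ± 0.37, adjusted p = 0.0995) and 3.06-fold that in pancreas, and the difference of pancreas from muscle was log2 -1.61 ± 0.37 (adjusted p = 0.0641). None of these passed the threshold, and the place of the 2 muscle libraries above all others is a description only. The 2 adipose libraries spanned the levels of pancreas and MEFs. Adipose minus MEFs was log2 -0.25 with both adipose libraries and 0.18 without the first.

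The whole reads behind the deposited RPKM table gave a different place to adipose. In those reads Fst was at 346 and 449 CPM in muscle, 158 and 137 in pancreas, 388 and 288 in adipose and 210 and 229 in MEFs. Adipose then lay above MEFs and beside muscle, and pancreas was the lowest group. On this scale Fst was higher in muscle than in MEFs (log2 0.86, adjusted p = 0.0186) and lower in pancreas than in muscle (log2 -1.43, adjusted p = 0.0136) and in adipose (log2 -1.19, adjusted p = 0.013). Muscle and adipose were not told apart (log2 0.23, adjusted p = 0.543). Each read of Fst counted as 0.141 estimated fragments in adipose library 1, and as 0.526 to 0.739 in the other 7. In both tables Fst was higher in muscle than in pancreas in every library, and the adipose level depended on the table used.

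Fstl3 encodes another antagonist of the follistatin type, which binds activins and myostatin but lacks a heparin-binding site. It was lowest in muscle, where Fst was highest. Fstl3 was at 4.43 and 4.08 CPM in muscle, 18.2 and 16.3 in adipose, 10.8 and 11.2 in pancreas and 12.3 and 13.4 in MEFs. Replicates lay close together, and muscle was below every other library. Muscle was 3.03-fold lower than MEFs (log2 -1.60 ± 0.25, adjusted p = 0.00175) and 4.07-fold lower than adipose (-2.03 ± 0.25, adjusted p = 0.00698), and pancreas was 2.60-fold higher than muscle (1.38 ± 0.25, adjusted p = 0.0268). Adipose, pancreas and MEFs were not called different from each other. Of 20 alternative settings 1 lost the call against MEFs, 8 that against adipose and 11 that of pancreas against muscle.

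Whole reads of Fstl3 were few, at 15 and 13 in muscle, 44 and 41 in pancreas, 3 and 81 in adipose and 95 and 111 in MEFs. Muscle was again below pancreas and MEFs, but adipose library 1, with 3 reads for 239 estimated fragments, had the lowest level. On these reads muscle against MEFs was log2 -2.13 (adjusted p = 0.0788), and no Fstl3 comparison was called. In the GENCODE annotation of GRCm38, at least 1157 exonic bases of Fstl3 lie opposite Prss57, a serine protease gene on the other strand. This is the largest overlap of a single pair of exons. No label or file header used here gives the strand setting of the counting. Prss57 was at 3.95 and 3.00 CPM in muscle, 5.18 and 5.54 in pancreas, 10.1 and 7.04 in adipose and 4.46 and 4.26 in MEFs. Reads of the 2 genes cannot be told apart without strand, so the Fstl3 values are uncertain.

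Fstl1 encodes a secreted glycoprotein of fibroblasts with a follistatin domain. It was at 2634 and 1887 CPM in muscle, 1037 and 1409 in pancreas, 1678 and 2450 in adipose and 1104 and 916.5 in MEFs. The adipose and muscle libraries were above all pancreas and MEF libraries. Fstl1 was 2.04-fold higher than MEFs in adipose (log2 1.03 ± 0.37, adjusted p = 0.0479) and 2.24-fold higher in muscle (1.16 ± 0.37, adjusted p = 0.0355), and the difference of pancreas from MEFs was not called (0.28 ± 0.36, adjusted p = 0.571). Both calls lie near the threshold. In adipose 11 of 20 alternative settings lost the call and 3 others turned its sign, and in muscle 12 of 20 lost it. Both were kept on whole reads (log2 1.65, adjusted p = 0.00233, and 1.12, adjusted p = 0.0137), and adipose without its first library gave log2 1.28 (adjusted p = 0.00884). On whole reads pancreas was also lower than adipose (log2 -1.31, adjusted p = 0.0194).

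Per length, in bias-adjusted FPKM, Fstl1 was the most abundant member in every library, at 273 to 812 FPKM. Fst came next in 7 of the 8 libraries, at 11.5 to 94.9 FPKM, and the exception was MEF library 2, where Inhba reached 250 FPKM and Fst 60.6. Fst exceeded Fstl3 by 26.7 and 39.0 times in muscle, 5.77 and 5.21 in MEFs, 3.94 and 4.30 in pancreas and 2.10 and 4.88 in adipose. On this scale the 2 muscle ratios lay above all the others. In RPKM they were 176 and 387 in muscle, 33.7 and 31.7 in MEFs, 35.4 and 30.9 in pancreas and 1181 and 43.2 in adipose. There adipose library 1, with its 3 whole reads of Fstl3, had the highest ratio, and the muscle libraries lay above the other 5.

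**Figure D2:**
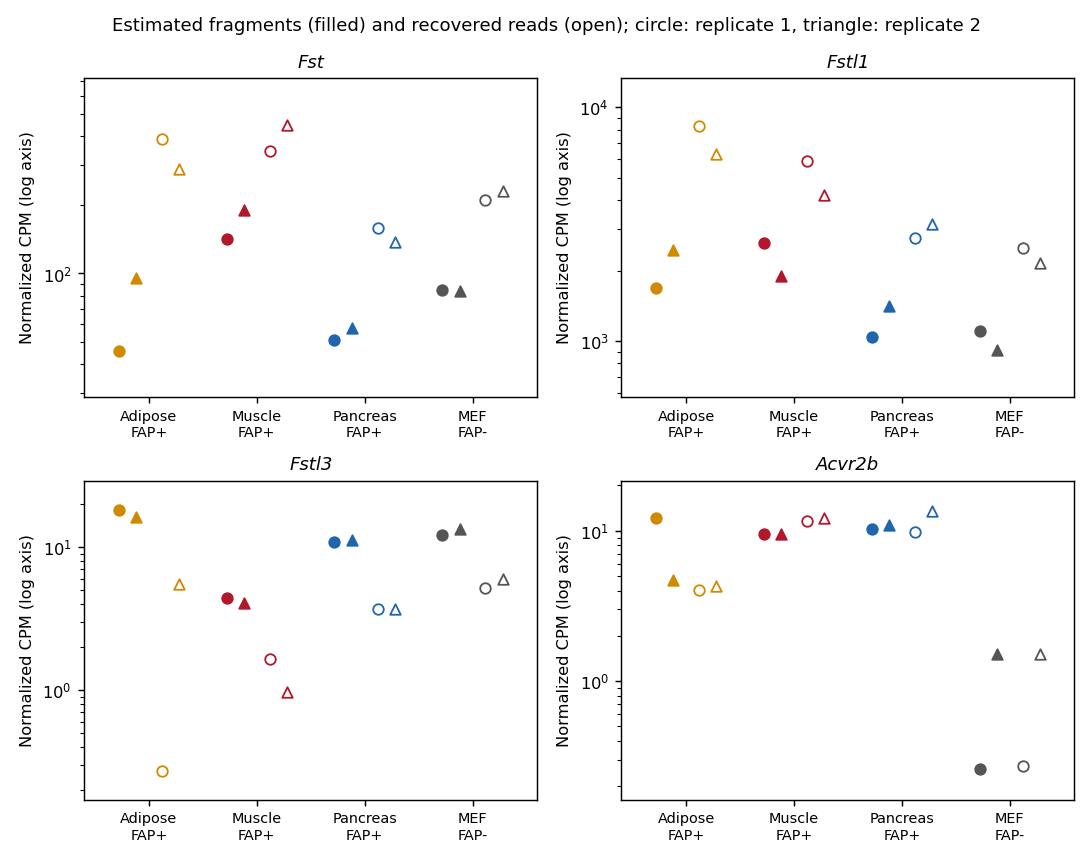
Normalized CPM on a log axis from estimated fragments (filled) and from recovered whole reads (open) for 4 members, in each library of the 4 groups. In adipose library 1 (circle) Fst moves from 45.7 CPM to 388 and Fstl3 from 18.2 CPM to 0.275, while for Acvr2b both tables place MEFs below all FAP+ libraries.

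The subunit genes of activin A and activin B were high in different tissues. Inhba, which encodes the βA subunit, was at 44.3 and 23.5 CPM in muscle, 10.02 and 5.75 in adipose, 3.66 and 4.27 in pancreas and 18.3 and 225 in MEFs. Among FAP+ cells both muscle libraries were above both adipose libraries, and these were above both pancreas libraries. None of these tissue differences was called, with log2 2.11 ± 0.96 for muscle minus adipose (adjusted p = 0.229) and -3.10 ± 1.01 for pancreas minus muscle (adjusted p = 0.183). The 2 MEF libraries were far apart, with 611 and 7424 estimated fragments and, in the other table, 462 and 5677 whole reads.

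Against MEFs, Inhba was 15.6-fold lower in adipose (log2 -3.96 ± 1.03, adjusted p = 0.0153) and 30.8-fold lower in pancreas (-4.94 ± 1.09, adjusted p = 0.00878). In muscle the difference was -1.85 ± 0.94 (adjusted p = 0.146). These sizes rest on MEF library 2. Without it adipose was log2 -1.22 (adjusted p = 0.103), pancreas -2.20 (adjusted p = 0.0233) and muscle 0.91, the opposite sign (adjusted p = 0.237). Both pancreas libraries, and both adipose libraries, were below the lower MEF library. In whole reads adipose minus MEFs was log2 -4.66.

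Inhbb, which encodes the βB subunit, was the member that set adipose apart from the other tissues. It was at 5.74 and 7.20 CPM in muscle, 10.6 and 12.7 in pancreas, 28.8 and 66.7 in adipose and 9.61 and 6.10 in MEFs. On this scale both adipose libraries were above all 6 others, and pancreas was above muscle in each library. In RPKM both adipose libraries were also above all others, at 7.12 and 14.9. In bias-adjusted FPKM adipose library 1, at 3.97, was below MEF library 1, at 4.13, and beside pancreas library 2, at 3.95. Inhbb was 6.09-fold higher in adipose than in MEFs (log2 2.61 ± 0.44, adjusted p = 0.00256). It was 7.37-fold lower in muscle than in adipose (-2.88 ± 0.45, adjusted p = 0.0141) and 4.12-fold lower in pancreas than in adipose (-2.04 ± 0.44, adjusted p = 0.0295). Muscle, pancreas and MEFs were not called different from each other. Whole reads gave the same 3 calls, at log2 2.83 (adjusted p = 0.000203), -2.99 (adjusted p = 0.00174) and -2.17 (adjusted p = 0.0034), and without adipose library 1 they were log2 3.09, -3.37 and -2.53. Of 20 alternative settings, 3, 6 and 10 lost these calls, and none turned a sign.

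Markers of endothelial cells were also high in the adipose libraries. The summed level of 5 endothelial markers was 10.7 and 47.0 CPM in muscle, 6.48 and 6.75 in pancreas, 210 and 227 in adipose and 2.58 and 2.34 in MEFs, with Pecam1 at 57.7 and 114 and Kdr at 32.8 and 31.7 CPM in adipose. Adipocyte markers summed to 19.3 and 10.6 CPM in adipose and to 1.56 or less elsewhere. All 5 endothelial markers were above the floor in both adipose libraries. The part of these cells in the Inhbb level was not tested, and fewer cells of a type and less RNA per cell cannot be told apart in bulk samples.

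Per length, the balance of the 2 subunits differed between groups. The ratio of Inhba to Inhbb in FPKM was 21.5 and 9.07 in muscle and 5.31 and 103 in MEFs, against 0.969 and 0.24 in adipose and 0.966 and 0.939 in pancreas. Inhba thus exceeded Inhbb in muscle and MEFs, and was at or below it in adipose and pancreas. RPKM values gave 20.4 and 8.89 in muscle, 5.74 and 107 in MEFs, 0.333 and 0.208 in adipose and 0.835 and 0.966 in pancreas, the same split. Fst exceeded the sum of both subunits 1.47 to 4.78 times in all FAP+ libraries and 2.55 times in MEF library 1, and was 0.24 of it in MEF library 2. In RPKM the same ratio was 3.67 to 10.9 in FAP+ libraries, with adipose library 1 at 9.75 against 1.47 in FPKM, and 4.61 and 0.481 in MEFs.

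**Figure D3:**
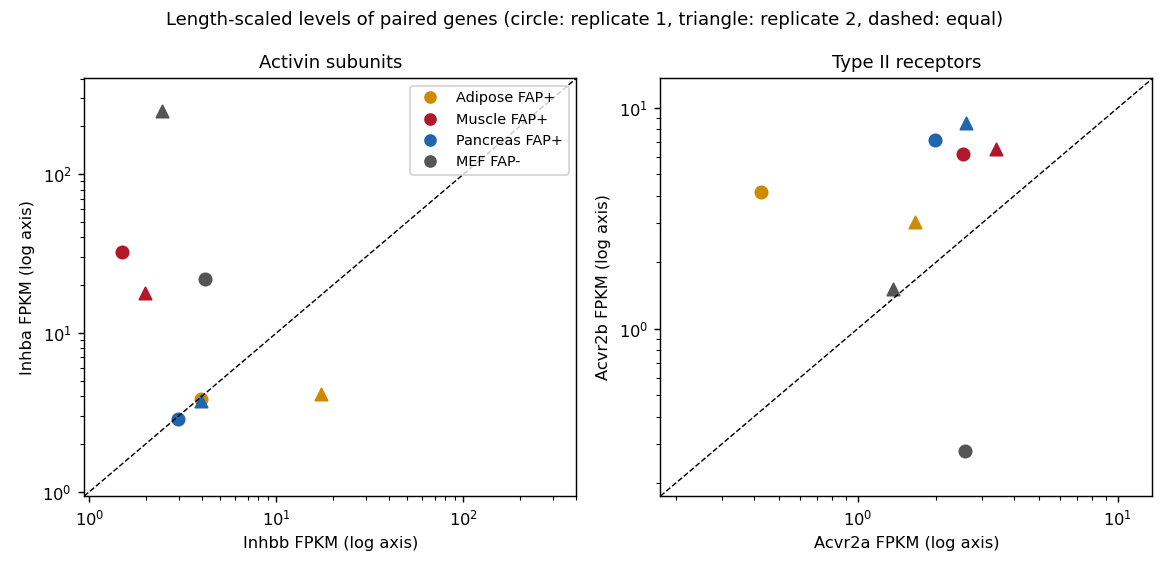
Bias-adjusted FPKM on log axes of Inhba against Inhbb (left) and Acvr2b against Acvr2a (right) in each library, with a dashed line where both are equal. Muscle and MEF libraries lie above the line for the subunits, with Inhba 5.31 to 103 times Inhbb, while adipose and pancreas lie on or below it; on the right the 6 FAP+ libraries lie above the line, and MEF library 1, with a ratio of 0.108, lies below.

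Myostatin, the muscle fibre product that limits muscle mass, was not detected above the floor in any group. Mstn had 2.04 and 2.17 estimated fragments in muscle, 0.999 and 1.42 in pancreas, 0.323 and 0.482 in adipose and 1.89 and 0 in MEFs. All 8 values are under the floor of 3 fragments, and whole reads numbered 0 to 4 per library, so no fold is given, and at this depth a level below 0.09 to 0.229 CPM would not be seen. In muscle the fibre genes Acta1 and Ckm, which fibres express at very high levels, were at 8.43 and 9.92 and at 5.66 and 7.49 CPM. Acta1 was higher in MEFs, at 17.0 and 17.8 CPM, while Ckm was at 0.741 or less outside muscle. Myh4 was also highest in muscle (1.74 and 1.24 CPM), but Mylpf and Myh1 were highest in adipose library 1 (3.80 and 0.907 CPM). The myogenic factors Myod1 and Myf5 were at most 0.188 and 0.0611 CPM in muscle. Pax7 was at 0.0782 and 0.461 CPM there and Myog at 0.0773 and 0.207. In muscle library 2, Pax7, Myog and Myod1 were above the floor of 0.129 CPM. Pax7 was highest in that library, while Myod1 was highest in adipose library 1 (0.399 CPM) and Myog in MEF library 1 (0.324 CPM). The whole list of 10 muscle markers summed to 51.1 and 66.2 CPM in muscle, 71.0 and 18.5 in adipose, 45.8 and 42.9 in pancreas and 25.7 and 22.3 in MEFs, most of it Tnnt3 in FAP+ cells.

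Gdf11, whose mature protein is close to myostatin, was low in all groups. It had 5.74 and 12.8 estimated fragments in muscle, 9.96 and 9.91 in pancreas, 8.51 and 12.3 in adipose and 26.9 and 15.97 in MEFs. Its level was 0.366 to 0.806 CPM, and all 4 groups overlapped. No comparison was called, with fitted log2 differences between -0.44 and 0.13 and SE of 0.54 to 0.57.

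Among the receptor genes, Acvr2b was higher than MEFs in all 3 tissues. This type II receptor, which binds activins and myostatin, was at 9.48 and 9.49 CPM in muscle, 10.2 and 10.9 in pancreas, 12.1 and 4.69 in adipose and 0.26 and 1.51 in MEFs. All 6 FAP+ libraries were above both MEF libraries, and the 2 adipose libraries spanned the levels of the other tissues. Acvr2b was 9.25-fold higher than MEFs in adipose (log2 3.21 ± 0.74 SE, with an adjusted p = 0.00947). The difference was 10.6-fold in muscle (log2 3.40 ± 0.75, adjusted p = 0.00846) and, in pancreas, 11.8-fold (log2 3.56 ± 0.75, adjusted p = 0.00731). Fitted on whole reads, the differences from MEFs were log2 2.19 in adipose, 3.71 in muscle and 3.67 in pancreas. The size in adipose thus depended on the table used. The call was kept in all 20 alternative settings in muscle and pancreas and in 19 in adipose. The 2 MEF libraries held 8.66 and 49.8 estimated fragments, so the size is less certain than the direction: without MEF library 1 the 3 values were log2 2.41, 2.61 and 2.78, and without MEF library 2 they were 4.92, 5.13 and 5.27. Between tissues no difference was called, with log2 0.19 ± 0.67 for muscle minus adipose and 0.15 ± 0.66 for pancreas minus muscle. In whole reads Acvr2b was at 4.03 and 4.26 CPM in adipose, 9.75 and 13.4 in pancreas and 11.6 and 12.1 in muscle, where adipose was below the other tissues without being called (log2 1.51, adjusted p = 0.0874, and 1.48, adjusted p = 0.0716). By limma on log2(RPKM + 1) from the same table both differences were called, at 1.23 for muscle minus adipose (adjusted p = 0.0457) and 1.35 for pancreas minus adipose (adjusted p = 0.0229).

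Acvr2a, the other type II receptor, followed a different order. It was at 13.0 and 16.6 CPM in muscle, 9.46 and 11.2 in pancreas, 4.13 and 8.55 in adipose and 8.05 and 4.57 in MEFs. Both muscle libraries were above all others, pancreas was in between, and adipose overlapped with MEFs. It was 2.34-fold higher in muscle than in MEFs (log2 1.23 ± 0.42, adjusted p = 0.0473), a call that 12 of 20 alternative settings lost. In whole reads the same comparison was log2 1.03 (adjusted p = 0.0107), and adipose was also higher than MEFs (log2 0.72, adjusted p = 0.0453). In the same annotation at least 446 exonic bases of Acvr2a lie opposite Orc4, a replication factor gene. Orc4 was at 26.3 and 26.1 CPM in muscle, 21.0 and 18.9 in pancreas, 13.7 and 18.7 in adipose and 48.4 and 39.3 in MEFs. Without a strand setting, reads of Orc4 in these exons cannot be told apart from those of Acvr2a, so the Acvr2a values are uncertain too. Fst also has at least 115 exonic bases opposite another gene, Gm47040, whose level was not read out. The other members had no such overlap.

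Per length, Acvr2b exceeded Acvr2a in all 6 FAP+ libraries, by 9.76 and 1.83 times in adipose, 2.43 and 1.91 in muscle and 3.61 and 3.25 in pancreas. In MEFs the ratio was 0.108 and 1.10. In RPKM the FAP+ ratios were lower, at 0.431 and 0.432 in adipose, 1.00 and 1.48 in pancreas and 1.09 and 0.92 in muscle, against 0.038 and 0.345 in MEFs. The ratio was above that of both MEF libraries in every FAP+ library on both scales, while which receptor was the more abundant depended on the scale.

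Acvr1b, the type I receptor for activins, was low in all groups, at 0.92 and 1.30 CPM in muscle, 0.912 and 1.80 in pancreas, 0.148 and 2.33 in adipose and 0.824 and 0.798 in MEFs. The first adipose library, with 1.94 estimated fragments, was under the floor. No comparison was called, with log2 values against MEFs of 0.69 ± 0.91 in adipose, 0.45 ± 0.92 in muscle and 0.75 ± 0.91 in pancreas.

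**Figure D4:**
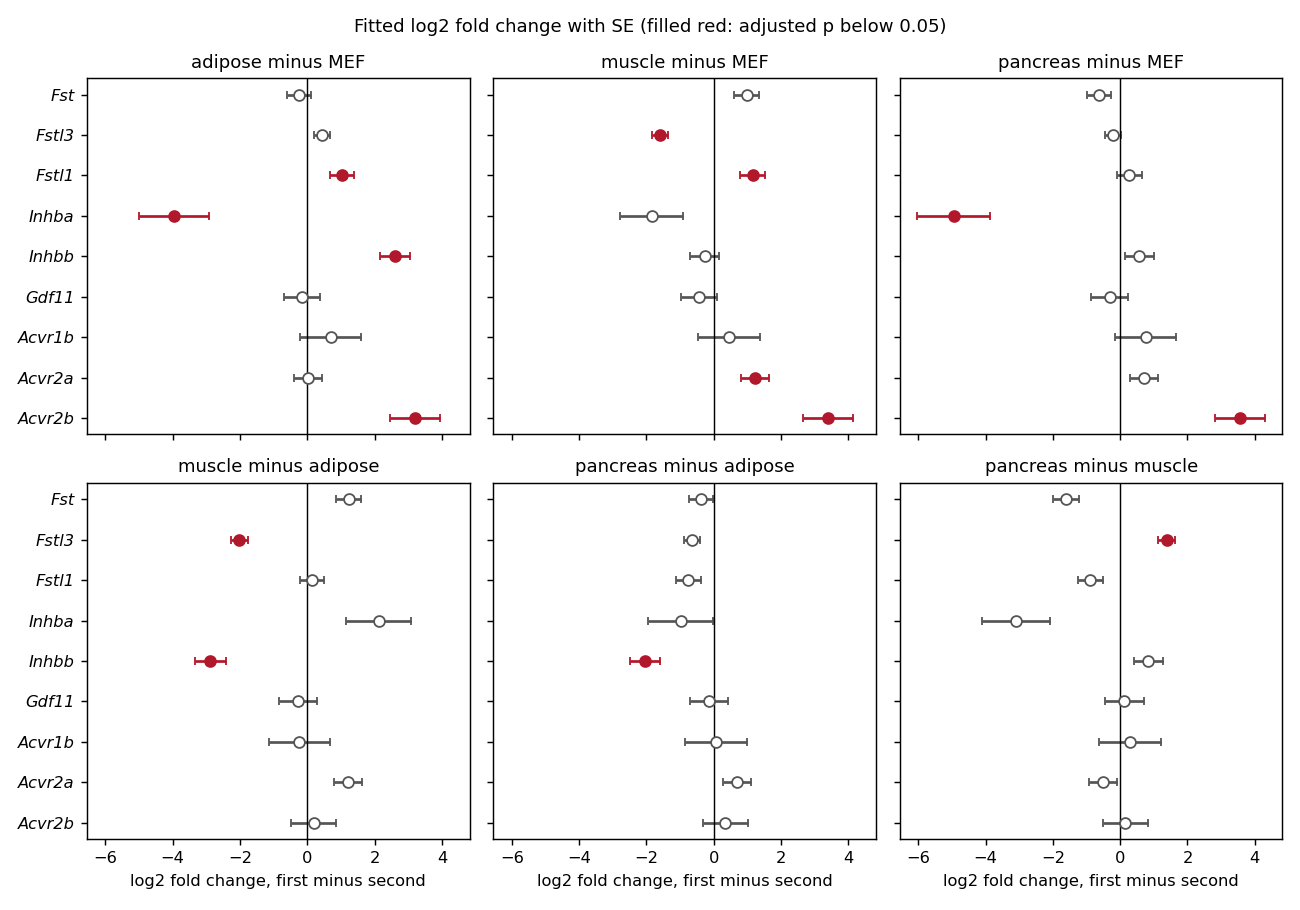
Fitted log2 fold change with SE (horizontal bars) of the 9 tested members in the 6 comparisons, filled red at an adjusted p below 0.05. Acvr2b is higher than MEFs in all 3 tissues (3.21, 3.40 and 3.56), Inhbb is called in every comparison that involves adipose, and Fstl3 in every comparison that involves muscle.

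Fstl3, Acvr2b and Inhbb each had 3 calls, more than any other member, and the 250 bases before their annotated starts are shown for that reason. They are from RefSeq's GRCm38.p6, in the direction of the gene, with the motif CAGAC on either strand (GTCTG on the other), the core element that SMAD3 and SMAD4 bind, in capitals. Fstl3 is chr10:79777024-79777273 on the plus strand, Acvr2b chr9:119401928-119402177 on the plus strand and Inhbb chr1:119422249-119422498 on the minus strand.
Fstl3: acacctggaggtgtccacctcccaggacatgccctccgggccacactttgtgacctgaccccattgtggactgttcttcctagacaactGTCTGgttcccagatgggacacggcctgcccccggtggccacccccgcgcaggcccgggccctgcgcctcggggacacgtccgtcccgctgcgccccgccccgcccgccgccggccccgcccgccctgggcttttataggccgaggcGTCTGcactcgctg
Acvr2b: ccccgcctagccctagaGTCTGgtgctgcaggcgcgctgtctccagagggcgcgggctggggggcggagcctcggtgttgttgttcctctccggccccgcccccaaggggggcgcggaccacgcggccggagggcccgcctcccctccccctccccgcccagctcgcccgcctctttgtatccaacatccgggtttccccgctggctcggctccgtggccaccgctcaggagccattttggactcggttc
Inhbb: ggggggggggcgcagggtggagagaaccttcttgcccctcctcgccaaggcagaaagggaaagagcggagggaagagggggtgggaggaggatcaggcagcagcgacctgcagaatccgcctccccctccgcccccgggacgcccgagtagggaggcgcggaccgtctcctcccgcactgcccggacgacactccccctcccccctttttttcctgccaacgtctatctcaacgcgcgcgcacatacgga
The motif begins 161 and 14 bases before the start of Fstl3 and 233 bases before that of Acvr2b, and these letters are not in the window of Inhbb. Of 32851 promoters of the same length 42.2% hold it, so a match is common. Of the 10 members 9 had an entry in the promoter table, and Fst did not.

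The genes whose levels ran most like those of a member over the 8 libraries are given as a description, by Pearson r of log2 CPM among 8666 genes whose level reached 10 CPM in both libraries of a group. The points share libraries and depth, and adipose library 1 and MEF library 2 weigh heavily. Fst ran most like Pptc7 (r = 0.98), the homeobox gene Meox2 (0.94) and Ypel5 (0.93). Meox2 was at 43.1 and 56.7 CPM in muscle and at 5.37 to 11.5 CPM in the other 6 libraries. Inhba ran most like Cited2 (0.94), Uhrf1bp1l (0.90) and E2f1 (0.90). Inhbb ran most like the ferroxidase gene Heph (0.95), Vcam1 (0.95), which encodes an adhesion molecule, and Garnl3 (0.95). Garnl3 was at 24.6 and 26.4 CPM in adipose and at 2.20 to 3.58 CPM elsewhere.

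Other genes of the pathway were read out in 4 lists. Their counts stand beside the shares of all genes called against MEFs in adipose, muscle and pancreas, which were 26.9%, 23.7% and 23.1% higher and 23.2%, 20.0% and 19.4% lower. Of 9 other ligand and subunit genes of the activin and nodal branch 5 were tested, and 3, 4 and 3 were higher than MEFs in adipose, muscle and pancreas and none lower. Their median log2 fold change was 2.65, 2.46 and 2.96, beside 0.05, 0.03 and 0.02 over all genes. Lefty1, an inhibitor of nodal, was at 10.6 to 30.03 CPM in FAP+ cells and at 2.69 and 1.54 in MEFs, and was higher by log2 3.19, 3.66 and 3.75 (adjusted p = 0.00195, 0.00125 and 0.00117). In whole reads its adipose value was log2 2.41. Gdf3 was called in all 3 tissues at only 0.237 to 0.577 CPM. In MEFs it was under the floor, at 0.0528 and 0.0251 CPM with 2 and 1 whole reads. It passed the filter only through FAP+ cells, so its calls could hardly have gone the other way. Gdf1 was called at 11.04 to 46.1 CPM against 5.59 and 2.18 in MEFs, yet had 0 whole reads in all 8 libraries in the RPKM table, so its level is uncertain. Without Gdf1, 2, 3 and 2 of 4 genes were higher and the medians were 1.72, 2.35 and 2.03. Gdf3 is still among these 4, so the counts and medians of this list only describe it. Inha, which encodes the α subunit that turns an activin into an inhibin, was at 4.34 and 4.404 CPM in muscle and 2.24 and 1.23 in MEFs (log2 1.34 ± 0.40, adjusted p = 0.0279), a call that 9 of 19 alternative settings lost. No gene of this list was called between tissues.

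Of 12 other receptor and co-receptor genes 10 were tested, and 6, 5 and 4 were higher than MEFs in adipose, muscle and pancreas and 1 lower in each, against 26.9%, 23.7% and 23.1% of all genes higher and 23.2%, 20.0% and 19.4% lower. The median was 1.53, 1.19 and 0.76, beside 0.05, 0.03 and 0.02 over all genes. Acvrl1, a type I receptor known from endothelial cells, was at 101 to 242 CPM in FAP+ cells and at 4.30 and 4.80 in MEFs. It was higher by log2 5.45 ± 0.36, 4.59 ± 0.34 and 5.43 ± 0.36 in adipose, muscle and pancreas. Eng (endoglin) was higher by log2 2.61, 2.71 and 3.85, and Tgfbr3 (betaglycan, a co-receptor of inhibin) by 3.45, 3.74 and 2.91. In whole reads the adipose values of Acvrl1, Eng and Tgfbr3 were log2 4.75, 2.06 and 4.11. In pancreas Eng was at 848 and 856 CPM and Acvrl1 at 211 and 181. The endothelial markers summed to 6.48 to 227 CPM in the FAP+ libraries and to 2.58 and 2.34 in MEFs, and their part in the levels of Eng and Acvrl1 was not tested. Bmpr1b, a type I receptor for BMPs, was lower in all 3 tissues, at 0.0757 to 0.394 CPM against 2.67 and 2.11 in MEFs. It is the 1 lower gene counted above. Bmpr1b passed the filter only through MEFs, so it could hardly have been called higher.

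Of 17 other binders and activators of the ligands 16 were tested, and 10, 7 and 6 were higher than MEFs and 4 lower in each tissue. Of all genes 26.9%, 23.7% and 23.1% were higher and 23.2%, 20.0% and 19.4% lower, so the 4 of 16 lower genes are near the share of all genes. The median was 1.90, 1.38 and 1.95, beside 0.05, 0.03 and 0.02. Dcn (decorin, a matrix proteoglycan that binds TGF-β and myostatin) was at 11081 to 21787 CPM in FAP+ cells and at 42.6 and 22.7 in MEFs. The metalloprotease genes Tll1 and Tll2, whose products can free latent myostatin, went in opposite directions. Tll1 was at 16.8 and 13.1 CPM in MEFs, 2.67 and 3.47 in muscle, 0.252 and 0.817 in adipose and 0.618 and 0.249 in pancreas, and was lower in every tissue than in MEFs and higher in muscle than in adipose (log2 2.45, adjusted p = 0.0498) and in pancreas (pancreas minus muscle -2.79, adjusted p = 0.048). These 2 calls between tissues were lost in 13 and 11 of 20 alternative settings. Tll2 had 0 fragments in MEFs and was at least 7.01-fold higher in muscle and at least 37.0-fold higher in pancreas, against a floor of 3 fragments per library. It passed the filter only through FAP+ cells, so it could not have been called lower. Grem1, a BMP antagonist, was at 5.43 and 41.3 CPM in MEFs and at 0.615 or less in FAP+ cells. It is among the 4 lower genes of this list, passed the filter only through MEFs and could hardly have been called higher. Between tissues this list had 1 gene higher in muscle than in adipose, 1 higher in pancreas than in adipose and 1 lower in pancreas than in muscle, beside 2.34%, 3.32% and 2.14% of all genes.

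Of 18 SMAD and feedback genes 17 were tested, and 3, 5 and 2 were higher than MEFs and 3, 3 and 5 lower in adipose, muscle and pancreas. This is 17.6%, 29.4% and 11.8% of the list higher and 17.6%, 17.6% and 29.4% lower, near or below the 26.9%, 23.7% and 23.1% of all genes higher and, but for pancreas, the 23.2%, 20.0% and 19.4% lower. The median was -0.18, 0.36 and -0.07, beside 0.05, 0.03 and 0.02. The transducers of the axis did not move as 1 group. Smad2 was lower than MEFs in adipose (log2 -1.31 ± 0.35, adjusted p = 0.0171) and pancreas (-1.06 ± 0.35, adjusted p = 0.0412), and Smad3 was higher in muscle (0.82 ± 0.25, adjusted p = 0.0289) and pancreas (1.53 ± 0.25, adjusted p = 0.00237). In whole reads Smad2 in adipose was log2 -0.70 from MEFs. Of 20 alternative settings 9 lost the call of Smad2 in pancreas and 11 that of Smad3 in muscle, while 2 lost that of Smad2 in adipose and 1 that of Smad3 in pancreas. Smad4, the partner of both, was at 40.1 to 89.1 CPM in all libraries and was called in no comparison. Smad1, which carries BMP signals, was higher than MEFs in adipose (1.77) and muscle (1.20), and lower in pancreas than in adipose (-1.12, adjusted p = 0.0297), a call that 11 of 20 settings lost. Smad9 and the inhibitory Smad6 were lower than MEFs in all 3 tissues, by log2 -2.90 to -3.16 and -1.85 to -2.30, and the call of Smad6 in muscle was lost in 8 of 20 settings. Tgif1, a repressor of SMAD2 and SMAD3 targets, was at 37.1 and 36.0 CPM in pancreas, 87.4 and 62.4 in muscle, 207 and 148 in adipose and 169 and 182 in MEFs, and was lower in pancreas and muscle than in adipose (-2.28, adjusted p = 0.00594, and -1.24, adjusted p = 0.049). The call for muscle was lost in 15 of 20 alternative settings and that for pancreas in 3.

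Markers of other cell types were also present, with sums below that of the fibroblast markers in every library. Some were above members of the axis, such as Krt18 at 97.0 CPM in pancreas library 1, where Fst was at 51.0 CPM. Acinar and islet markers summed to 140 and 69.2 CPM in pancreas and to 7.92 or less elsewhere, led by Ctrb1 at 36.8 and 19.2 and Cela2a at 32.6 and 13.8. Mesothelial markers summed to 144 and 46.8 CPM in pancreas and 55.9 and 73.8 in MEFs, against 4.58 to 11.8 in the other tissues, with Krt18 and Krt19 the highest in pancreas and MEFs. The others on this list split: Upk3b was at 7.09 and 4.75 CPM in pancreas and 0.496 and 0.732 in MEFs. Lrrn4 and Upk1b were also higher in pancreas, while Msln was at 2.42 and 1.55 CPM in pancreas and 10.1 and 9.05 in MEFs. Schwann cell markers summed to 38.8 and 29.1 CPM in muscle, nearly all of it Mbp, 20.9 and 24.9 in pancreas and 7.41 and 9.55 in adipose. Leukocyte markers summed to 14.1 CPM or less in every library. Pericyte and smooth muscle markers summed to 65.3 to 119 CPM in all libraries. Myh11 was at 72.2 and 66.8 CPM in adipose and at 18.8 or less elsewhere. Rgs5, Kcnj8 and Notch3 also had their highest mean in adipose, at 15.6, 12.5 and 11.2 CPM. For Rgs5 and Notch3 the adipose libraries overlapped with those of another tissue. Only Cspg4 went the other way, at 11.3 and 7.91 CPM in adipose and at 45.5 to 110 elsewhere. The part of these cells in the levels of the axis was not tested.

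**Figure D5:**
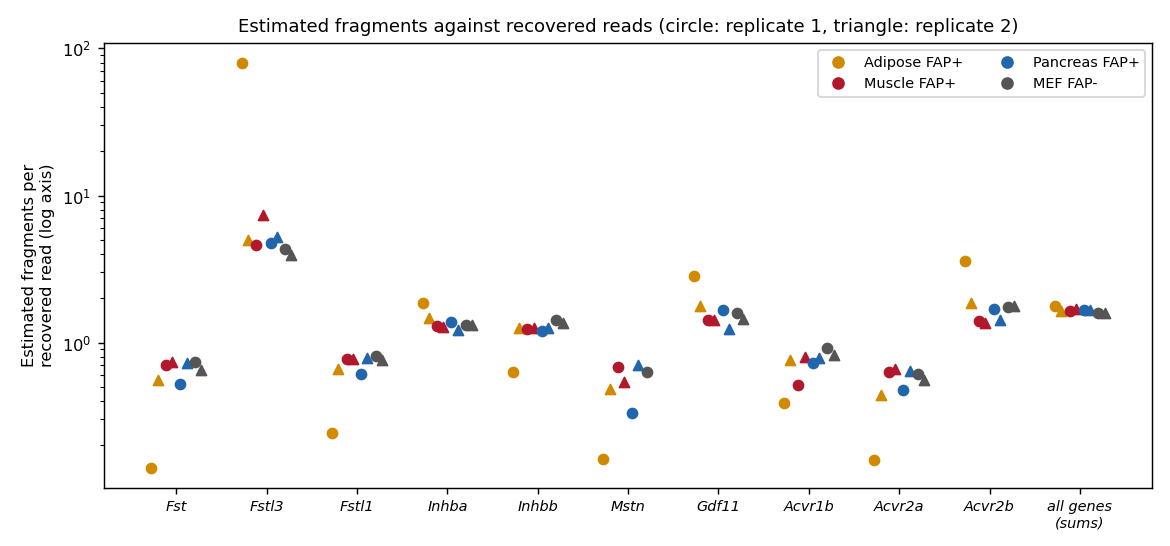
Estimated fragments per recovered whole read on a log axis for the 10 members and for the sums over all genes, in each library with a read. The first adipose library (circle) lies apart from the other 7 for Fst (0.141 against 0.526 to 0.739), Fstl3 (79.7 against 3.97 to 7.32), Fstl1 (0.243 against 0.614 to 0.809) and Acvr2b (3.601 against 1.37 to 1.87), although the sums over all genes are similar.

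The plot of fragments per read shows where the deposited tables part. For Inhba the first adipose library gave 1.85 fragments per read against 1.23 to 1.46 in the others, and for Inhbb 0.636 against 1.19 to 1.43. The order of muscle, pancreas and MEFs by mean level was the same in fragments and in reads for every tested member except Acvr2b, where muscle and pancreas, which lay close together, changed places. How the bias adjustment acted on this library was not tested.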

How the data were processed

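Per the labels' protocols, RNA from the sorted mouse cells (Purelink) was amplified by MessageAmp, a method that primes on poly(A), before an Illumina mRNA library preparation, which can favour the 3' ends of transcripts. The authors deposited 3 tables per gene and library. Per the file headers the first holds bias-adjusted fragments, which are estimated counts and need not be whole, and the others the bias-adjusted FPKM and the RPKM. Named in the submitters' processing notes are the build mm9 and the tools HTSeq, edgeR, TopHat2 and Bowtie2. Which program made the bias adjustment was not found in the labels or headers. In each deposited table, 8 columns matched a sample's title, and 6 others were not used here.

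Estimated fragments were rounded and fitted with edgeR 4.0.16 in R 4.3.3 (TMM, filterByExpr on 4 groups, quasi-likelihood test, all 8 libraries in 1 fit with no covariates and 4 residual degrees of freedom). The SE is the log2 fold change divided by the square root of the F statistic. Each of the 6 comparisons had its p-values adjusted (Benjamini-Hochberg) over 14847 genes. The RPKM values were whole multiples of 1 step per gene and library, which gave whole reads for 22609 genes (100% of values within 0.01), 9497241 to 16807797 per library. A step was accepted only if it met that tolerance, so the 100% is not a separate check. The largest such step was taken, so a gene's reads may be too few by a whole factor. The whole reads were fitted in the same way, an alternative chosen after seeing the data. Amplified fragments are not independent molecules, so floors cover counting error only. No 2 libraries of a group held identical values.

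The members and the gene lists were chosen with earlier results of these data known. Named genes followed a rule: all members, Fap, up to 4 genes per pathway list by number of calls, Smad2, Smad3 and Smad4, the 3 genes most like Fst, Inhba and Inhbb, and 2 or more markers per cell type list. Alternatives were other scalings (RLE, upper quartile), DESeq2 1.42.0, other filters, a fit of only the groups compared, a replicate block, limma 3.58.1 on log2(FPKM + 1), log2(FPKM + 0.1) and log2(RPKM + 1), and each library left out in turn. Promoter sequences are RefSeq's for GRCm38.p6 and exon overlaps GENCODE's for GRCm38, not the authors' mm9, so no coordinates were joined to the tables.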

Additional observations from a re-analysis of the deposited data

How the results depend on the processing

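Over the 9 tested genes of the axis and 6 comparisons, 1055 refits under 20 alternative settings gave 871 with the same direction and side of the threshold, 79 that lost a call, 38 that gained one and 67 that changed sign. Over the other named pathway genes, 882 refits kept their call and 150 lost it. With 2 libraries per group, a library left out leaves its group with 1, which is assumed to vary like the others. Some of these fits also have fewer libraries, and the cause of the differences below was not tested.

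Members called, against 4, 4, 2, 2, 1 and 1 reported (adipose, muscle and pancreas against MEFs, muscle and pancreas against adipose, and pancreas against muscle), ranged with a library left out from 2 to 4, 2 to 5, 1 to 3, 0 to 5, 0 to 4 and 0 to 2. Adipose against MEFs gave 2 in the fit of only those groups, with log2(FPKM + 0.1) and with log2(FPKM + 1) at 1 FPKM in 2 libraries. Muscle against MEFs gave 2 with no filter and with limma on log2(FPKM + 1), with and without that minimum, log2(FPKM + 0.1) and log2(RPKM + 1). All 3 tissue comparisons gave 0 with limma on FPKM under any pseudocount or minimum. Fits of only the groups compared gave 0, 0 and 5 in the tissue comparisons, and DESeq2 gave 3 for pancreas against muscle. Recovered reads gave 1 for muscle and 3 for pancreas against adipose, and log2(RPKM + 1) gave 3 for the latter. Over all genes, fits of only the groups compared called 4588 genes for adipose against MEFs, against 7445 reported, and 74, 305 and 1752 in the tissue comparisons, against 908, 1344 and 545, where DESeq2 called 2029, 2405 and 1055 and recovered reads 1933, 3235 and 864. With log2(RPKM + 1) the first 2 were 1506 and 3328, and with log2(FPKM + 1) at 1 FPKM in 2 libraries 495 and 872. With a library left out all 6 ranged over 4321 to 9491, 3382 to 8987, 3506 to 8830, 51 to 5410, 8 to 5077 and 58 to 1205. Upper quartile scaling moved the share of calls that were higher in pancreas than in adipose from 36.7% to 47.1%. The FPKM and RPKM fits, which have no scaling between libraries, put the median of all genes against MEFs at log2 -0.18 to -1.02, so changes there are relative to that shift.

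The labels do not say whether libraries with the same replicate number share animals or preparation, and correlations of their deviations cannot settle it. Same-numbered libraries of 2 groups had correlated deviations of 0.11 and 0.35 for adipose with muscle and pancreas, -0.16 for adipose with MEFs, -0.074 for muscle with MEFs, 0.003 for pancreas with MEFs and -0.011 for muscle with pancreas. With the replicate block 2 members rather than 4 were called in muscle against MEFs and 3 rather than 4 in adipose against MEFs, with the other counts of members as reported.

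These differences, none of them called as reported except Fstl1 in adipose against MEFs, changed sign (log2). With recovered reads, Fst was 0.62 for adipose minus MEFs, Fstl3 -0.90 for adipose minus MEFs and 0.31 for pancreas minus adipose, Fstl1 -0.53, Gdf11 0.54 and Acvr1b 0.034 for muscle minus adipose, Gdf11 0.66 and Acvr2a -0.029 for pancreas minus adipose, and Acvr2b -0.035 for pancreas minus muscle. With log2(RPKM + 1), Fstl3 was -1.16 and Acvr1b -0.036 for adipose minus MEFs, Fstl1 -0.044 for pancreas minus MEFs, Fstl1 -0.35, Gdf11 0.10 and Acvr1b 0.12 for muscle minus adipose, and Fstl3 0.50, Inhba 0.0081 and Gdf11 0.17 for pancreas minus adipose. With log2(FPKM + 1) and log2(FPKM + 0.1), adipose minus MEFs was -0.63 and -0.69 for Fstl3, -0.12 and -0.12 for Fstl1, -0.086 and -0.68 for Acvr1b and -0.58 and -1.05 for Acvr2a; muscle minus MEFs was -0.053 and -0.16 for Acvr1b; pancreas minus MEFs was -0.22 and -0.22 for Fstl1; muscle minus adipose was 0.034 and 0.11 for Gdf11 and 0.033 and 0.53 for Acvr1b; and pancreas minus adipose was 0.34 and 0.36 for Fst and 0.11 and 0.38 for Gdf11. The minimum of 1 FPKM kept 0.34 for Fst, -0.63 for Fstl3, -0.12 and -0.22 for Fstl1 and -0.58 for Acvr2a. Acvr2a for adipose minus MEFs was -0.026 with upper quartile scaling, -0.041 with no filter and -0.042 with the replicate block, which also gave 0.070 for Acvr1b in muscle minus adipose. Left-out libraries gave ranges across 0. For adipose minus MEFs these were -0.89 to 0.18 for Fst, -0.48 to 0.22 for Gdf11, -2.36 to 1.53 for Acvr1b and -0.63 to 0.46 for Acvr2a. For muscle minus MEFs they were -2.76 to 0.91 for Inhba and -0.54 to 0.056 for Inhbb, and for pancreas minus MEFs -0.62 to 0.081 for Gdf11. For muscle minus adipose they were -0.13 to 0.43 for Fstl1, -1.08 to 2.81 for Acvr1b and -0.34 to 1.00 for Acvr2b. For pancreas minus adipose they were -0.82 to 0.25 for Fst, -0.39 to 0.088 for Gdf11, -0.78 to 3.11 for Acvr1b and -0.19 to 1.16 for Acvr2b. For pancreas minus muscle they were -0.10 to 0.43 for Gdf11 and -0.31 to 0.72 for Acvr1b.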
